A study of Mus musculus with 2 samples.

Results

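The kelch, ASB and cullin genes of mouse gastrocnemius, the large fast muscle of the calf, were described here as a set of 71 genes. They comprised every protein-coding gene whose symbol starts with Klhl, Kbtbd, Asb or Cul followed by a number, among 55536 annotated genes and 21853 nuclear protein-coding genes. The set holds 36 Klhl, 9 Kbtbd, 18 Asb and 8 Cul genes, and the symbols alone chose them, with no measured value. Total RNA was sequenced in 2 biological replicate libraries of male B6CASTF1/J mice, an F1 cross of the C57BL/6J and CAST/EiJ strains, at 14 days of age, with 300 ng of RNA per library. There is 1 group, with no treatment, mutant or second tissue, so values are levels and their spread between the 2 libraries. The labels mention 3 males and give both libraries the same donor identifier. Whether a library holds 1 animal or a pool is not stated, so the spread may be partly technical.

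Cullins are the scaffolds of the largest class of ubiquitin ligases. A cullin holds a RING protein (Rbx1 or Rnf7) at its C-terminal end and, at its N-terminal end, an adaptor that picks the protein to be tagged with ubiquitin. Cul3 uses BTB-kelch proteins, the products of the Klhl and Kbtbd genes, while Cul5 uses SOCS-box proteins through elongins B and C, and the ankyrin-repeat ASB proteins belong to those. In striated muscle such adaptors are known for the upkeep of the sarcomere: mutations in human KLHL40, KLHL41 and KBTBD13 cause nemaline myopathy, a congenital weakness with rod-shaped Z-disc aggregates, and Asb2 targets filamins.

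Replicate 1 held 40825601 expected counts and replicate 2 held 37329025, of which added ERCC control RNA took 0.731% and 0.881%. Levels are in TPM, a gene's share of all transcripts in the library after correction for transcript length, and errors are the SD of the 2 libraries (n = 2). The 6 muscle fibre markers summed to 99109 and 106159 TPM, and all 6 were called higher in replicate 2 by the counting test described further on, and higher in replicate 1 when that test was scaled by the added RNA. All 3 fibroblast markers (Pdgfra, Col1a1 and Dcn) were called higher in replicate 1, with sums of 1801 and 1303 TPM, under either scaling. The 3 adipocyte markers were called higher in replicate 2, with sums of 2.26 and 14.6 TPM, as were the 3 erythroid markers, with sums of 977 and 1347 TPM, of which 2 kept the call with added RNA scaling. Markers of neurons and testis stayed at or below 0.11 TPM on average. Of the heart markers, Nppa was at 0 in both libraries, Tnni3 had 0.34 and 1.02 TPM, and Myh6 had 54.6 and 49.0 TPM. In a second quantification in the deposit, made directly from the reads, Myh6 had 28.8 and 25.7 TPM, so its level depended on the quantifier. In such bulk tissue, fewer cells of a type and less RNA per cell cannot be told apart.

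Most of the set was detected in this muscle, and a few adaptors carried most of its RNA. In both libraries 58 of the 71 members (81.7%) reached 1 TPM, against 49.5% of all nuclear protein-coding genes. These were 28 of 36 Klhl, 16 of 18 Asb, 6 of 9 Kbtbd and all 8 Cul genes. The median member had 4.46 TPM and the median of all nuclear protein-coding genes was 1.09 TPM. The members summed to 1393 TPM in replicate 1 and 1443 TPM in replicate 2, a mean of 1418 ± 35.4. Klhl genes gave 60.2% ± 1.46 of that sum, Asb genes 22.9% ± 0.788, cullins 13.7% ± 0.817 and Kbtbd genes 3.22% ± 0.150. Klhl31 and Klhl41 together accounted for 33.3% ± 3.02 of the members' TPM, the leading 5 genes for 49.7% ± 0.733 and the leading 10 for 70.2% ± 0.941. In all, 23 members had a mean of 10 TPM or more, namely 9 Klhl, 8 Asb, 5 Cul and 1 Kbtbd gene. That is 32.4% of the set, against 20.9% of all nuclear protein-coding genes.

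**Figure D1:**
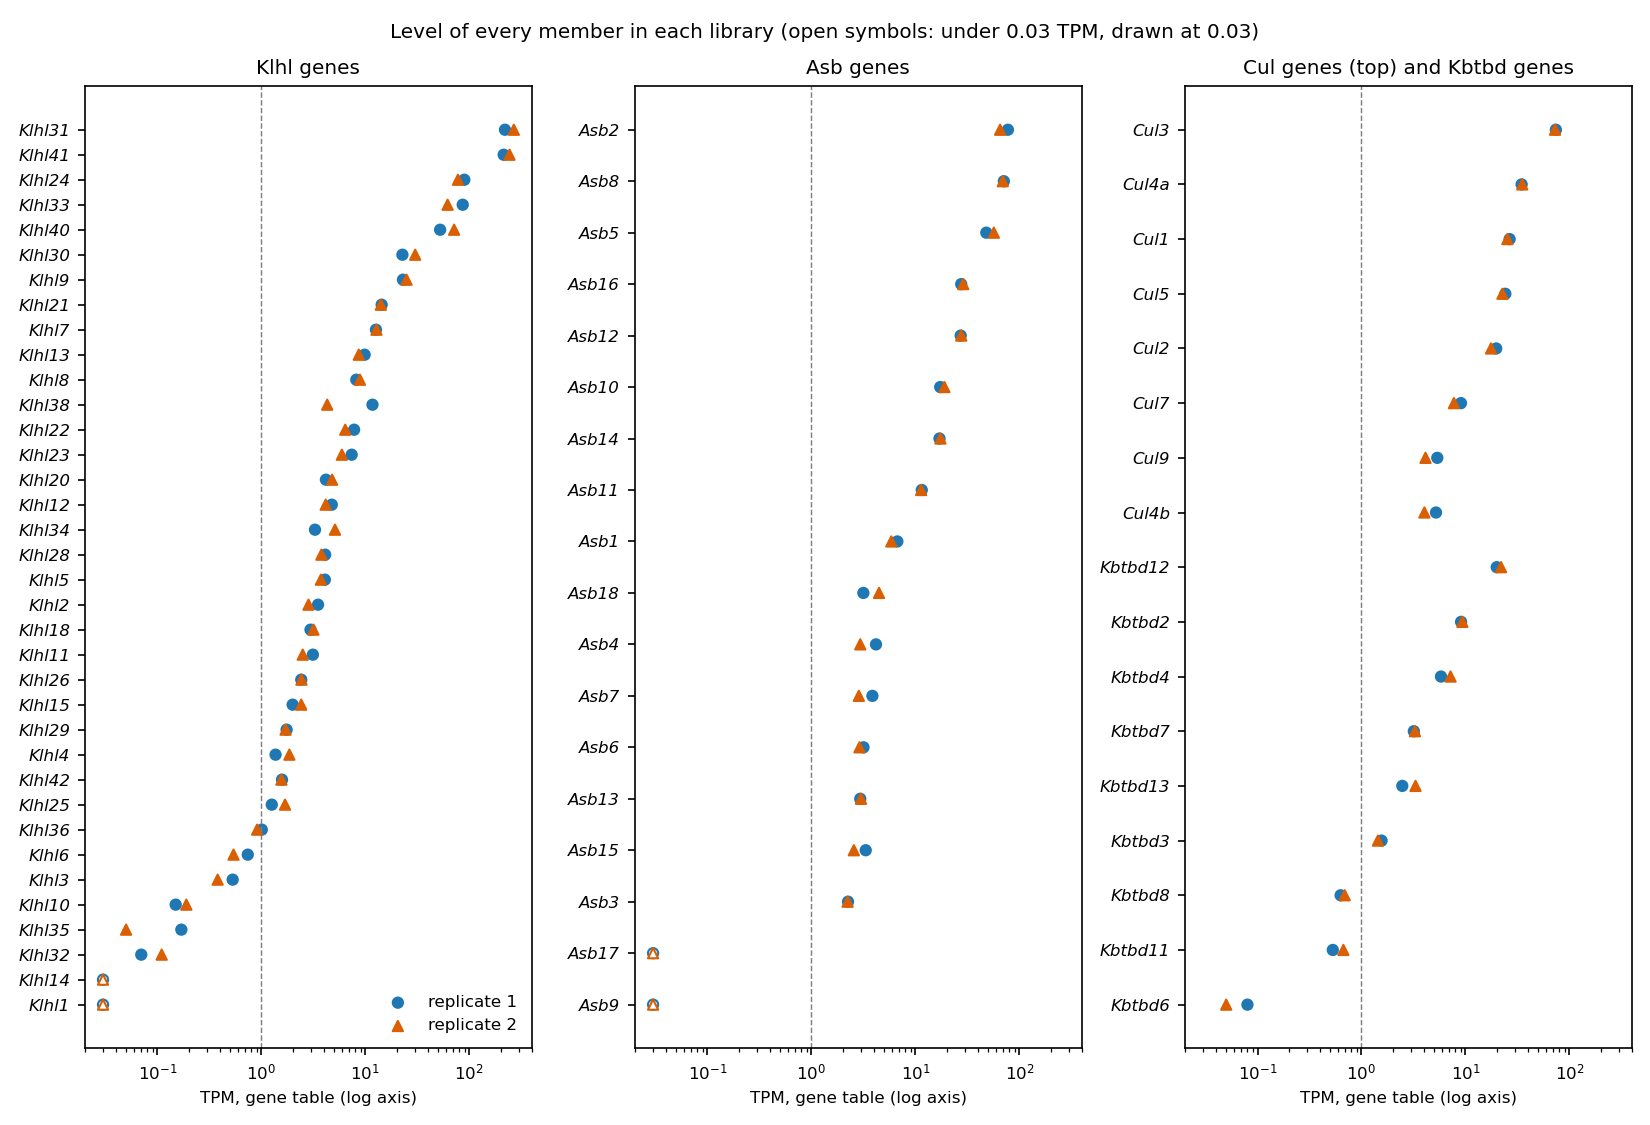
Level of each of the 71 members in TPM on a log axis, with circles for replicate 1 and triangles for replicate 2 and a dashed line at 1 TPM. Klhl31 and Klhl41 lie apart at the top, between 214 and 268 TPM, and the symbols of replicate 1 and 2 lie farthest apart for Klhl38 among members above 1 TPM.

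Several of the leading members share a DNA motif close to their annotated start. Windows of 300 bases, from 250 before to 50 after the start annotated by RefSeq (GRCm38.p6, the assembly named mm10 in the labels), were matched for 61 of the 71 members. For 51 of the 61, that start lies within 100 bases of the start of the gene's leading transcript. The largest distances are those of Asb15 (27928 bases), Asb9 (8424) and Klhl22 (3150), all below 10 TPM. Such windows may miss the start of the RNA measured, which limits the comparison of tiers below. The motif of MEF2, a family of transcription factors of muscle genes, was searched on both strands. It was found in 6 of the 20 windows of members at 10 TPM or more, in 1 of 31 at 1 to 10 TPM and in 0 of 10 below 1 TPM. Of all 21262 protein-coding windows of that length, 2.74% hold it. For each member the window nearest the start of its leading transcript was kept, whereas this background takes every window, for each motif. The background was not split by level. Whether the share at 10 TPM or more is particular to this set was therefore not tested. Klhl24, Klhl30 and Cul2 are the members at 10 TPM or more without a window here. All 7 matches lie within the 100 bases upstream of the RefSeq start, and 6 of them also lie upstream of the start of the gene's leading transcript in the files' annotation. The exception is Asb14, whose match lies 27 to 36 bases downstream of the start of Asb14-201. Of the 7 matches 4 (Asb14, Asb16, Asb18 and Kbtbd12) overlap a match to TATAAA on one strand or the other. These 60-base stretches, given 5′ to 3′ on the gene's strand because they carry the shared motif, have the match in capitals.
Klhl41 (chr2:69670032-69670091, plus strand): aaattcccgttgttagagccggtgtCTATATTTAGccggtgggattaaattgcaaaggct
Klhl33 (chr14:50897499-50897558, minus strand): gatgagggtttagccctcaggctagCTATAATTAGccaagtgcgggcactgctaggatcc
Asb12 (chrX:95478143-95478202, minus strand): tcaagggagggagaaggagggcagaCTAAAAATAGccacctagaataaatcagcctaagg
Asb16 (chr11:102268668-102268727, plus strand): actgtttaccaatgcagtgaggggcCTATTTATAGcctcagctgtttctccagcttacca
Asb14 (chr14:26894559-26894618, plus strand): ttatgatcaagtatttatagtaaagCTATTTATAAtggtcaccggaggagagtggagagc
Kbtbd12 (chr6:88627486-88627545, minus strand): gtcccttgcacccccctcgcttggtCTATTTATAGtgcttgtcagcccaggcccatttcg
Asb18 (chr1:90014643-90014702, minus strand): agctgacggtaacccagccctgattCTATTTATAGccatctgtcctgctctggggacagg

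Counted from the RefSeq start, the matches span bases -63 to -54 in Klhl41, -50 to -41 in Klhl33, -48 to -39 in Asb12 and -58 to -49 in Asb16. In Asb14 the match lies at -30 to -21, in Kbtbd12 at -91 to -82, and in Asb18, a gene of 3.82 ± 0.926 TPM, at -11 to -2. The CArG box, the motif of serum response factor, was found in 2 of the 20 windows of members at 10 TPM or more and in no other member's window, against 1.52% of all windows. Its holders are 2 ASB genes, shown here with the box in capitals.
Asb2 (chr12:103356031-103356090, minus strand): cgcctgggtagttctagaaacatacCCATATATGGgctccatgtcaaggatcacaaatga
Asb5 (chr8:54550095-54550154, plus strand): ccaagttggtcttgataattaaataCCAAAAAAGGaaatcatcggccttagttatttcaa

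The box lies at -64 to -55 in Asb2 and at -211 to -202 in Asb5. The muscle E-box CAGCTG, also searched on both strands, was in 5 of the 20 windows of members at 10 TPM or more (Klhl41, Klhl40, Asb5, Asb16 and Klhl21), in 6 of 31 at 1 to 10 TPM and in 4 of 10 below 1 TPM, against 15.6% of all windows, so its share did not follow the level. TATAAA was in 6, 4 and 1 windows of these tiers, against 12.6% of all. No searched motif was present in the windows of Klhl31 and Cul3. Their RefSeq starts lie 232 bases downstream (Klhl31) and 379 bases upstream (Cul3) of the annotated start of their leading transcript. The Klhl31 window thus lies mostly downstream of that start, and the Cul3 window wholly upstream and apart from it. Bases just upstream of those transcript starts were therefore searched little or not at all. A match is a match of letters only, and binding at these bases was not measured.

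**Figure D2:**
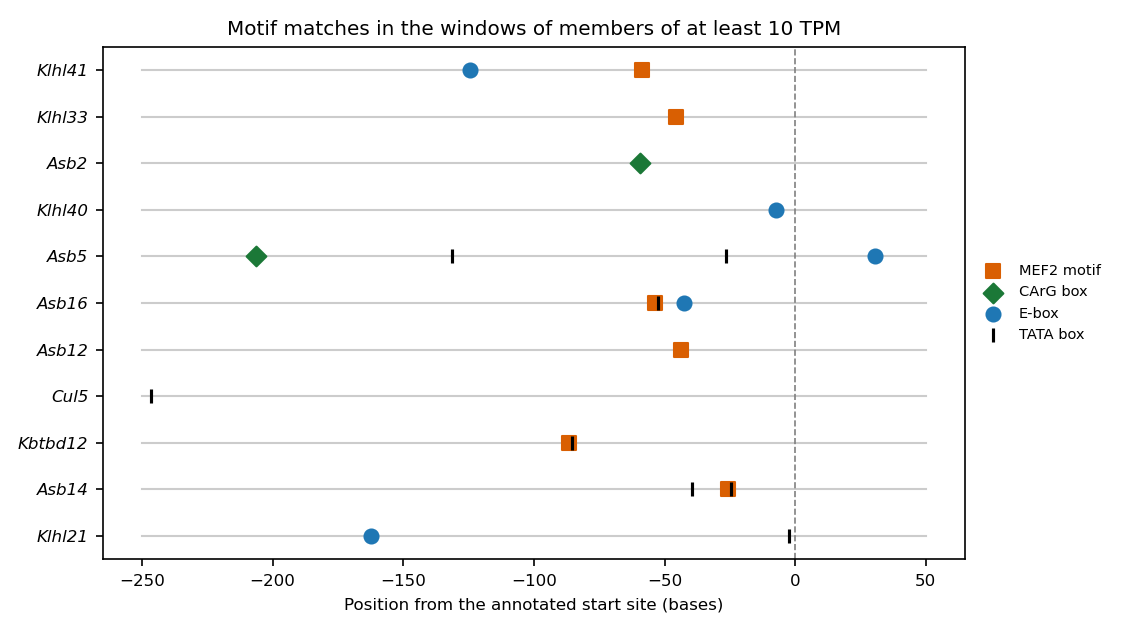
Motif matches by distance in bases from the RefSeq start (dashed line at 0) for members of at least 10 TPM with any match, ordered by level from the top. The MEF2 matches (squares) lie within 100 bases upstream of the start in 6 genes, and 3 of those squares carry an overlapping TATA match (bars).

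Among the BTB-kelch adaptors, Klhl31 and Klhl41 were the leading genes. Klhl31 (chr9:77636500-77660127 in mm10, plus strand), an adaptor of striated muscle with filamin C among its targets, had 221 TPM in the first library and 268 TPM in the second, and ranked 221 among all nuclear protein-coding genes. Klhl41 (chr2:69670120-69684230, plus strand), which binds nebulin and nebulin-related proteins, had 214 and 244 TPM. The ratio of Klhl31 to Klhl41 was 1.03 in replicate 1 and 1.10 in replicate 2, a mean of 1.07 ± 0.0498. Klhl31 was thus slightly the higher within each library, although the ranges of the 2 genes over both libraries overlapped. Each has 1 annotated transcript, with 634 codons in 2 coding exons for Klhl31 and 606 codons in 6 coding exons for Klhl41. The next member lay well below both: Klhl24, whose product acts on intermediate filament proteins, had 89.6 and 77.8 TPM.

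Klhl33, a gene with little known about it, had 86.5 and 61.9 TPM, and Klhl40 (chr9:121777607-121783818, plus strand), which stabilises nebulin and leiomodin 3, had 52.4 and 71.5 TPM. Replicate 1 was the higher library for Klhl33 and the lower for Klhl40. Klhl41 exceeded its close relative Klhl40 by 3.75 ± 0.477 times. Below these came Klhl30 with 22.7 and 30.2 TPM and Klhl9, an adaptor of Cul3 in mitosis whose coding sequence lies in 1 exon, with 23.0 and 24.9 TPM. Klhl21, another mitotic adaptor, had 14.4 and 14.1 TPM, and Klhl7 had 12.7 and 12.8 TPM. These values were near equal in both libraries. Klhl13, a partner of Klhl9 in mitosis, was just under 10 TPM with 9.85 and 8.65, which made Klhl9 higher by 2.61 ± 0.384 times.

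Of the 9 Kbtbd genes, only Kbtbd12, a little-studied BTB-kelch gene, passed 10 TPM, with 20.0 and 22.0 TPM. Kbtbd13, the nemaline myopathy gene of this family, had 2.47 and 3.31 TPM, which was 7.37 ± 1.02 times below Kbtbd12. That ratio was 4.46 ± 0.447 over coding transcripts alone and 10.7 ± 1.96 in the second quantification. The neighbouring genes Kbtbd7 and Kbtbd6, whose products form a Cul3 ligase for the Rac activator TIAM1, lie 20798 bases apart on chromosome 14. Kbtbd7 had 3.19 and 3.27 TPM, while Kbtbd6 had 0.08 and 0.05 TPM. Of the annotated 50-base stretches of Kbtbd6, 24.7% also occur in Kbtbd7, and both genes carry fractional counts, so how reads were split between them is uncertain. Kbtbd13 was chosen for naming after its values were seen, as were the members under 10 TPM named here that are neither cullins nor at the count floor.

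Among the ASB adaptors, 3 genes stood above the other 15. Asb2 (chr12:103321142-103356001, minus strand) had 77.6 and 65.3 TPM, Asb8 had 70.9 and 69.3 TPM, and Asb5 had 48.1 and 56.9 TPM. Ranges of Asb2 and Asb8 overlapped, as did those of Asb5 and Klhl40, whereas Asb5 lay above the next member, Cul4a, in both libraries. Asb16 (27.6 and 28.9 TPM) and Asb12 (27.3 and 27.6 TPM) were near equal to each other. Asb10 (17.3 and 19.0 TPM), Asb14 (17.1 and 17.4 TPM) and Asb11 (11.5 and 11.4 TPM) completed the ASB genes above 10 TPM. Asb11 lies 47156 bases from Asb9 on the X chromosome, and Asb9, an adaptor for creatine kinase B, had 0 counts in both libraries. Against a floor of 3 counts per library, Asb11 was at least 128-fold higher than Asb9 in replicate 1 and at least 118-fold higher in replicate 2. Intervals and floors of this kind cover counting error only.

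All 8 cullins were detected, and Cul3 led them. Cul3 (chr1:80264923-80340480, minus strand), the scaffold of the BTB-kelch ligases, had 74.1 and 72.7 TPM. Cul4a, which works with Ddb1, had 34.7 and 35.2 TPM, and Cul1, the scaffold of the F-box ligases, had 26.6 and 25.3 TPM. Cul5, the partner of the ASB proteins, had 24.2 and 22.7 TPM, and Cul2, the scaffold used by the VHL protein, had 19.8 and 17.6 TPM. Both libraries ranked these 5 in the same order in the gene table, whereas the second quantification placed Cul1 (53.3 ± 2.50 TPM) above Cul4a (46.6 ± 0.580 TPM). The margin of Cul3 depended on the scale. With reads counted against the longest coding transcript of each gene, Cul3 had 36.3 TPM and Cul4a 32.7 TPM. Cul7, an atypical cullin that binds the F-box protein Fbxw8, had 9.05 and 7.75 TPM. Its relative Cul9, which lies 103948 bases away on chromosome 17, had 5.36 and 4.13 TPM. Cul4b, the X-linked paralogue of Cul4a, had 5.21 and 4.03 TPM, so Cul4a exceeded it by 7.69 ± 1.46 times.

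Summed over many genes, adaptor RNA exceeded the RNA of the single scaffold gene in both of the ligase families that pair them. TPM summed over the 36 Klhl and 9 Kbtbd genes was 12.3 ± 0.776 times that of Cul3. Summed TPM of the 18 Asb genes was 13.9 ± 0.501 times that of Cul5. With reads counted against the longest coding transcript of each gene, the first ratio was 22.4 ± 1.00 and the second 15.7 ± 0.241. In the second quantification they were 10.3 ± 0.826 and 14.1 ± 0.173. Each ratio sets many genes against 1, so it does not describe single adaptors. The median Klhl gene had 3.93 TPM and the median Kbtbd gene 2.89 TPM, below the 73.4 TPM of Cul3. The median Asb gene had 5.05 TPM, below the 23.4 TPM of Cul5. These ratios are of RNA, and protein was not measured.

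Genes of the cullin machinery outside the set were present throughout. Of 33 listed symbols 32 were found, since Skp1 is annotated as Skp1a, and all 32 reached 1 TPM in both libraries with a median of 32.6 TPM. Elongin B (Elob) led with 148 and 149 TPM, followed by Skp1a, the SCF linker, with 110.3 and 113.6 TPM. The RING proteins Rbx1 and Rnf7 had 48.0 and 51.8 TPM and 32.5 and 32.8 TPM. Cul1 to Cul4b, which use Rbx1, summed to 3.16 ± 0.247 times Rbx1, and Cul5, which uses Rnf7, was 0.717 ± 0.0373 of Rnf7. Nedd8, the ubiquitin-like protein that activates cullins, had 90.1 and 84.1 TPM. Of the exchange factors that swap adaptors on cullins, Cand2, known as the form of striated muscle, had 30.7 and 31.7 TPM and Cand1 had 11.2 and 12.2 TPM.

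Related adaptors under other names, such as Keap1, which restrains the oxidative stress factor Nfe2l2, had a median of 11.1 TPM. All 13 listed reached 1 TPM, with Spop highest at 85.7 and 85.6 TPM and Keap1 at 24.2 and 23.5 TPM. Of 18 other SOCS-box adaptors 17 reached 1 TPM, and their median was 7.18 TPM. The listed clients of these adaptors, which they tag, bind or stabilise, had a median of 33.5 TPM, and 11 of 12 reached 1 TPM. Nebulin (Neb) had 2101 and 2136 TPM, Lmod3, the actin-filament nucleator leiomodin 3, had 47.7 and 53.9 TPM, and filamin C (Flnc) had 120.4 and 168.6 TPM. Creatine kinase B (Ckb), the target of the undetected Asb9, had 8.92 and 9.17 TPM.

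At the low end, 12 members were below 1 TPM in both libraries, and Klhl36 fell on either side of that level with 1.01 and 0.910 TPM. Asb9, Asb17, an adaptor of the testis, and Klhl1, a gene of the brain, had 0 counts in both libraries, and Klhl14, a gene of B cells, had 0 and 1 counts. The second quantification gave 4 and 0 estimated counts to Klhl1 and 1 and 2 to Asb17, and 0 to Asb9 in both libraries. A count of 0 allows up to 3 counts, which is 0.0735 CPM in replicate 1 and 0.0804 CPM in replicate 2. Klhl10, a spermatid gene that lies 5591 bases from Klhl11, had 0.150 and 0.190 TPM, and Klhl11 had 3.13 and 2.50 TPM. Klhl6, a B cell gene, lies 114504 bases from Klhl24 and had 0.740 and 0.540 TPM. Klhl3, which with Klhl2 acts on WNK kinases in the kidney, had 0.530 and 0.380 TPM, and Klhl2 exceeded it by 7.05 ± 0.602 times. That ratio was 3.71 ± 0.674 with reads counted against the longest coding transcript and 5.19 ± 1.09 in the second quantification.

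The order of the 23 members above 10 TPM was resolved only in part. In 9 of the 22 neighbouring pairs of that order, both libraries of the higher gene lay above both libraries of the lower one. In the gene table such gaps lay below Klhl41, Asb5, Cul4a, Cul1, Cul5, Kbtbd12, Asb14, Klhl21 and Klhl7. No such gap lay between neighbours in the run of 7 genes from Klhl24 down to Asb5, which includes Cul3, Asb2, Asb8 and Klhl40. Genes farther apart in that run could still be separated. Cul3 (74.1 and 72.7 TPM), for example, lay above Asb8 (70.9 and 69.3 TPM) in both libraries. A pair without a gap may also keep its order within each library, as Klhl31 and Klhl41 did. The second quantification gave the median member 1.29 times its gene-table TPM, beside 1.35 times over all nuclear protein-coding genes at 1 TPM or more. Members ranged from 0.706 times for Asb18 to 2.05 times for Cul1, and Kbtbd12 had 2.03 times.

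Transcript shares show how gene levels divide among annotated transcripts. Of the 23 members above 10 TPM, 19 had at least 90% of their TPM on transcripts annotated as protein-coding, and 12 had at least 90% on 1 transcript. Transcripts of that class need not be full-length. Klhl24 had 97.8% of its TPM on them, of which the short partial Klhl24-204 took 48.1% of the gene's TPM. The leading transcript was the same in both libraries for 22 of the 23, and by mean share it was the same in the second quantification for all 23. Klhl31, Klhl41, Klhl30, Klhl9, Klhl21 and Asb16 have a single annotated transcript. Cul4a-201, with 759 codons, took 94.7% ± 2.78 of Cul4a, and Cul1-201, with 776 codons, took 88.2% ± 5.97 of Cul1. Asb2-201, with 634 codons, took 81.9% ± 4.03 of Asb2, and the shorter Asb2-204, with 586 codons, took 17.1% ± 3.22. The second quantification placed 99.2% ± 0.588 on Asb2-201 and 0% on Asb2-204, so the share of that shorter form depends on the quantifier.

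Cul2 had the lowest coding share among the 8 cullins, with 17.4% of its TPM on transcripts annotated as protein-coding. In replicates 1 and 2 that share was 46.5% and 43.5% for Cul7, and 48.4% and 49.5% for Cul9. Only Cul2, among the cullins, had a leading transcript not annotated as protein-coding. Its leading transcript was Cul2-202, which is annotated as a target of nonsense-mediated decay and has an open reading frame of 90 codons, with 45.9% of the gene's TPM in replicate 1 and 52.1% in replicate 2. In the second quantification its share was 58.8% ± 1.32. The full-length Cul2-205, with 745 codons, took 8.18% ± 4.69 and Cul2-201, with 706 codons, took 6.79% ± 1.49. Over coding transcripts alone Cul2 had 3.26 TPM, and Cul3 then exceeded Cul2 by 16.4 ± 1.63 times, against 3.94 ± 0.266 times at the gene level. With all reads counted against the longest coding transcript Cul2 had 10.1 TPM and the ratio was 3.61 ± 0.310. The transcript assignments rest on a model of reads that many transcripts share, and its part in this result was not tested.

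Cul3 spread over several transcripts. Cul3-202, with 702 codons, took 48.6% ± 1.09 of TPM, and the longer Cul3-201, with 768 codons, took 22.6% ± 1.45. By reads, which are not divided by length, these shares were 49.0% and 44.9%. Cul3-206, annotated for nonsense-mediated decay, took 12.7% ± 1.63. Cul5 was divided among Cul5-201 (855 codons, 40.0% ± 2.07), Cul5-209 (828 codons, 37.4% ± 5.01) and Cul5-202 (651 codons, 15.6% ± 3.71). Cul7-202, annotated as a retained intron, took 35.1% ± 0.0566 of Cul7, and Cul9-208, of the same type, took 31.7% ± 8.91 of Cul9.

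The level of Klhl24 depended on a short partial transcript. Klhl24-201, of 8172 bases and 600 codons, took 49.2% ± 2.26 of TPM, and Klhl24-204, of 840 bases, took 48.1% ± 2.31. By reads, Klhl24-201 took 91.0% and Klhl24-204 took 8.19%. Klhl24 was the gene whose leading transcript differed between the libraries. In the second quantification Klhl24-203, of 741 bases, took 39.4% ± 1.39 and Klhl24-204 took 14.0% ± 0.594. With its reads counted against the longest coding transcript, Klhl24 had 44.6 TPM in place of 83.7, and Klhl31 exceeded it by 5.43 ± 1.09 times in place of 2.95 ± 0.697. Kbtbd12 was similar: Kbtbd12-202, with 625 codons, took 60.7% ± 2.34 and the retained-intron transcript Kbtbd12-203 took 31.5% ± 3.78, whereas the second quantification put 41.8% ± 0.329 on the short Kbtbd12-204.

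**Figure D3:**
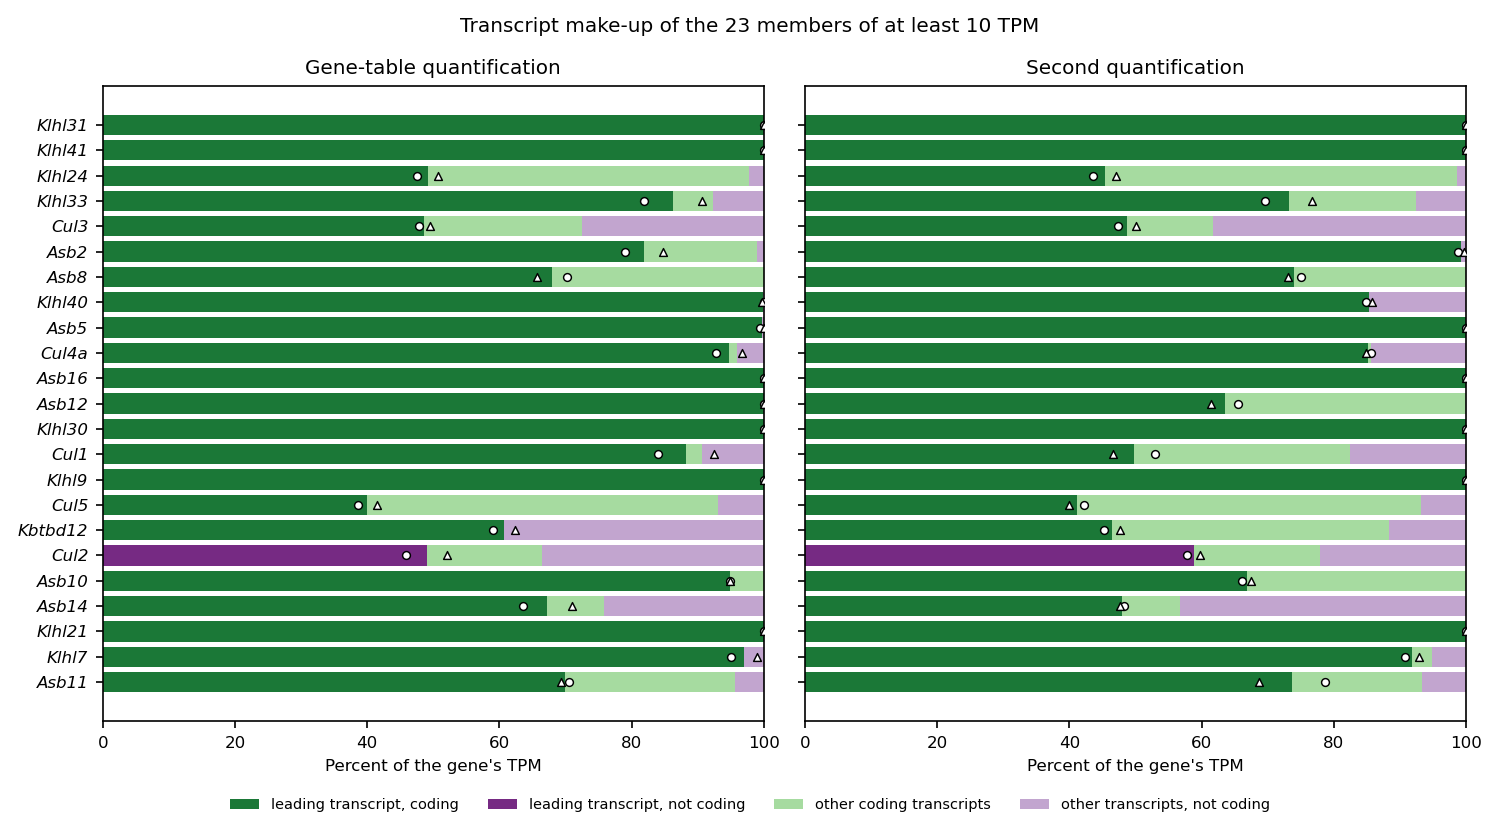
Transcript make-up of the 23 members of at least 10 TPM as percent of the gene's TPM (mean of 2 libraries), in the gene-table quantification on the left and the second quantification on the right; circles and triangles give the leading transcript's share in replicates 1 and 2. Cul2 is the gene whose leading transcript is not annotated as coding, and Asb2 and Kbtbd12 are among those whose make-up differs between the panels.

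**Figure D4:**
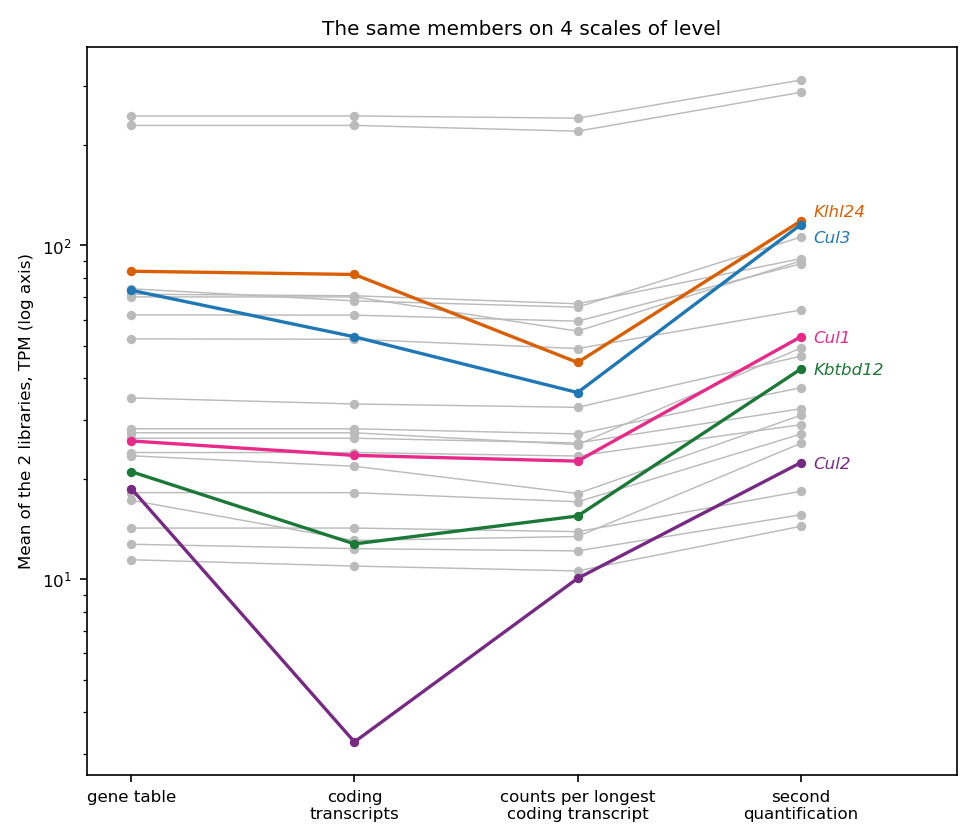
Mean TPM of the same 23 members on a log axis under 4 scales of level (gene table, coding transcripts alone, reads counted against the longest coding transcript, and the second quantification), with 5 genes in colour. Cul2 falls to 3.26 TPM over coding transcripts, Klhl24 falls to 44.6 TPM against the longest coding transcript, and Klhl31 and Klhl41 keep the top places on each scale.

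Differences between the libraries were tested with an exact binomial test on the counts of each gene, scaled by edgeR's TMM library sizes. It compares these 2 libraries against counting error alone, so a call means that they differed by more than sampling of reads, with no replicate check. Of 17245 genes with at least 10 counts, 21.5% were called at a Benjamini-Hochberg adjusted p under 0.05, 10.9% higher in replicate 2 and 10.6% higher in replicate 1. Of the members, 66 were tested and 25 were called, 17 higher in replicate 2 and 8 higher in replicate 1, which is 25.8% and 12.1% of those tested. The members were deeply covered, with at least 100 counts in 61 of the 66 tested, against 12347 of the 17245 genes. With those 100 counts and a log2 difference of at least 0.5 on the log2(TPM + 1) scale required as well, 2 of 61 members passed, Klhl38 and Klhl34, beside 4.2% of all genes. The median log2 difference, replicate 2 minus replicate 1, was -0.01 over the 58 members at 1 TPM or more and -0.04 over all such genes, and 70.7% of those members lay within 0.25 of 0, against 78.6% of genes.

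Relative to all genes, Klhl31 and the 3 nemaline myopathy genes Klhl40, Klhl41 and Kbtbd13 were called higher in replicate 2, though scaling by added RNA turned Klhl41 to the other direction and left Kbtbd13 uncalled. By scaled counts the log2 difference was 0.34 for Klhl31 (adjusted p = 4.89e-288, exact binomial test), 0.24 for Klhl41 (adjusted p = 5.02e-53) and 0.50 for Klhl40 (adjusted p = 1.72e-56). Klhl30 differed by 0.46, Asb5 by 0.30, Klhl34 by 0.69 and Kbtbd13 by 0.48. Called in the same direction were Cul3, Cul4a, Asb16, Klhl9, Kbtbd12, Asb10, Klhl8, Asb1, Asb18 and Klhl4. Cul3 and Asb1 were called higher in replicate 2 by counts, at 0.10 and 0.26, although their TPM was lower there, with log2 differences of -0.03 and -0.17. The 6 muscle fibre markers were called the same way under TMM and the other way with added RNA, and their part in these differences was not tested.

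The scale decides many of these directions. Scaling by the added control RNA in place of TMM moves each gene by -0.29 on the log2 scale. It leaves 4 members higher in replicate 2 (Klhl31, Klhl40, Klhl30 and Klhl34) and 37 higher in replicate 1, beside 1.72% and 50.8% of all genes. Of the 17 members called higher in replicate 2 by TMM, 8 were then not called and 5 (Klhl41, Cul3, Cul4a, Asb16 and Klhl9) were called higher in replicate 1. All 8 members called higher in replicate 1 kept that call.

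Higher in replicate 1 were Klhl24, Klhl33, Asb2, Klhl38, Klhl22, Cul9, Cul4b and Asb4. Klhl38 differed most of all members at 1 TPM or more. Its level was 11.7 TPM in replicate 1 against 4.30 TPM in replicate 2, from 793 and 272 counts, and the quantifier's intervals of 10.7 to 12.3 and 3.72 to 4.72 TPM did not overlap. Its scaled log2 difference was -1.39 (adjusted p = 2.37e-46, exact binomial test), and 21 of 10821 nuclear protein-coding genes at 1 TPM or more differed by at least as much on the TPM scale, itself included. The second quantification called it in the same direction (adjusted p = 1.80e-42, exact binomial test). Klhl38 (chr15:58314573-58324169, minus strand) overlaps the gene Gm15943 on the other strand, and 62.6% of its annotated 50-base stretches occur there. The libraries follow a stranded protocol per the labels, while the strand setting of the counting is not given in the sources used here, so reads of the pair may not be fully told apart. Klhl40, Klhl21 and Klhl9 also overlap a gene on the other strand. Of their annotated 50-base stretches, 20.0%, 19.8% and 14.8% occur in other genes, mainly in that one, so the same limit applies to them. For Klhl33 the scaled log2 difference was -0.33 (adjusted p = 4.59e-61) and for Asb2 -0.18 (adjusted p = 1.50e-09), both by the exact binomial test. The fibroblast markers were also higher in replicate 1, and their part in these differences was not tested.

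**Figure D5:**
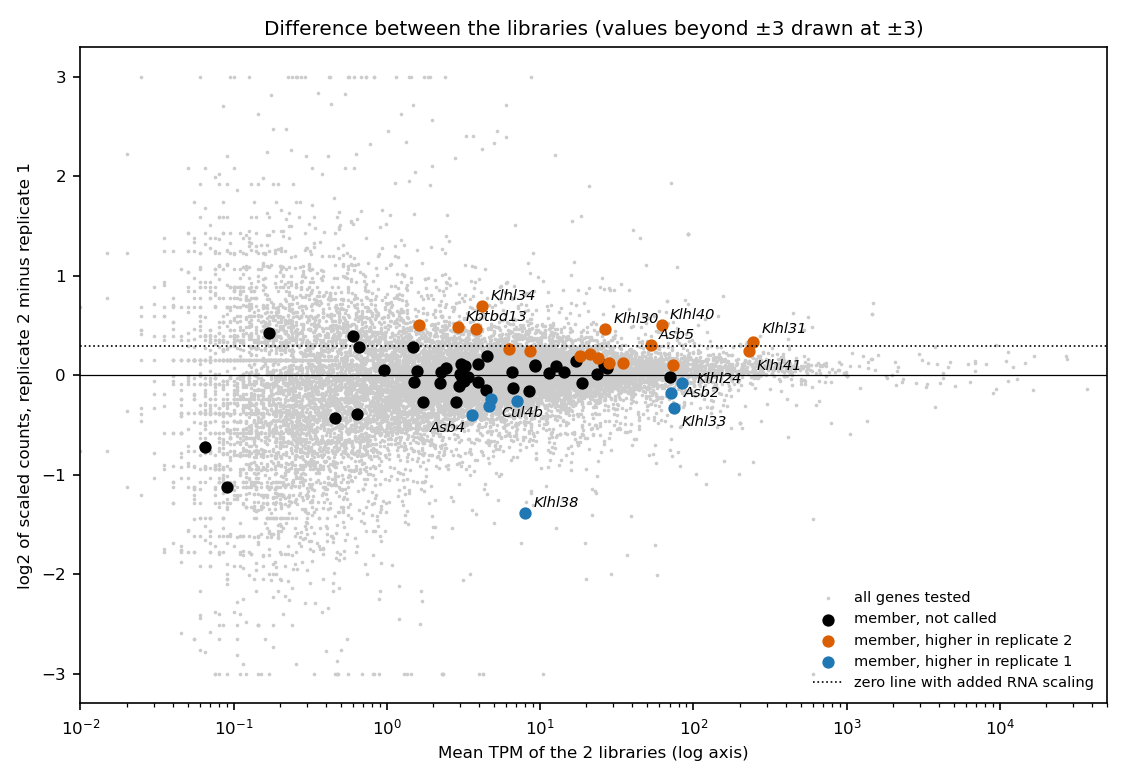
Log2 of scaled counts in replicate 2 minus replicate 1 against mean TPM (log axis) for all genes tested (grey) and the members, in orange where called higher in replicate 2, blue where called higher in replicate 1 and black where not called. The dotted line is the zero line under scaling by added control RNA, 0.29 above that of TMM; Klhl38 lies apart at -1.39 and Klhl34 is the highest called member at 0.69.

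Of the related genes, 9 of 32 in the cullin machinery were called higher in replicate 2 and 0 higher in replicate 1 by the same test, beside 10.9% and 10.6% of all genes, with a median log2 difference of 0.03. Scaled by added RNA, the counts were 1 (Senp8) and 24, beside 1.72% and 50.8% of all genes. Those 9 include Dcun1d1, a Nedd8 ligase subunit, with 29.7 and 36.1 TPM, and Senp8, a Nedd8 protease, with 2.71 and 4.28 TPM. Among the adaptors under other names 3 of 13 were called higher in replicate 2 and 1 higher in replicate 1, and with added RNA scaling 0 and 12. Among the other SOCS-box adaptors the counts were 7 and 2 of 18, and with added RNA scaling 4 and 11. Cish, a cytokine-induced inhibitor of signalling, had 10.8 and 26.3 TPM, and Spsb1 had 9.08 and 4.83 TPM. Of the 12 listed clients, 8 were called higher in replicate 2 and 1 higher in replicate 1, and with added RNA scaling 2 (Flnc and Irs1) and 8.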

How the data were processed

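Total RNA of 2 gastrocnemius libraries was sequenced. Per the labels, the deposited values refer to mm10. The authors' gene and transcript tables hold expected counts and TPM, and a second transcript table holds estimated counts and TPM. The gene annotation is GENCODE M21. Aligner and quantifier names: not given in the sources used here.  Transcript shares in percent were deposited too. The authors' quantifier also gave bounds on each TPM signal, as deposited.

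The members and lists were chosen with earlier results of these data known. Levels are gene-table TPM. Counts were rounded for the exact binomial test (two-sided, at least 10 counts over both libraries, SciPy 1.17.1), scaled by edgeR 4.0.16 TMM and corrected by Benjamini-Hochberg across the genes tested. On data simulated with counting error alone, as the test assumes, 199 of 200 changed genes were recovered and 7 of 17027 unchanged genes were called. That simulation holds no other variation between libraries, so it does not give the rate of false calls in the real data. Log2 differences of TPM use a pseudocount of 1. Alternatives were DESeq2 1.42.0 size factors, added RNA totals, other minimums and the second quantification. Named were members at 10 TPM or more, cullins, members with a large difference, and members at or below 3 counts. All cullins, Klhl, Kbtbd and Asb symbols matched 1 gene identifier each.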

Additional observations from a re-analysis of the deposited data

How the results depend on the processing

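No paired analysis was possible because there is 1 group with 2 libraries. With a minimum of 5 TPM in place of 1 the count of members in both libraries was 31 in place of 58. Scaling by added RNA totals changed the members called to 4 higher in replicate 2 and 37 higher in replicate 1, by its construction as a shift of all genes. DESeq2 size factors kept all 17 and 8 calls, and the second quantification kept 17 and 7. The members' summed TPM of 1418 was 1918 in the second quantification, 3026 within nuclear protein-coding genes, 1332 over coding transcripts alone and 1230 with reads counted against the longest coding transcript. The last pair of settings was chosen after seeing the data. Leaving out each replicate in turn gave 58 to 59 members and a summed TPM of 1393 to 1443. Of 32 named levels 28 moved beyond the spread of the libraries in the second quantification, as did 27 of 36 transcript shares, while all 28 log2 differences kept their side of the test's threshold and 1 of them, that of the uncalled Cul1, changed sign from -0.07 to 0.09. Depth limits the 5 members under 10 counts, which were not tested.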

Other observations

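Some genes that lie close together in the genome had unlike levels in this muscle. Klhl41 lies 137713 bases from Klhl23, a gene of 7.39 and 5.95 TPM, and Klhl30 lies 178127 bases from Asb1, which had 6.71 and 5.87 TPM. Asb6 had 3.17 and 2.90 TPM, but no TPM on its coding transcripts in the gene-table quantification: the retained-intron transcript Asb6-205 took 56.7% ± 8.50. In the second quantification the coding Asb6-201 took 17.0% ± 9.09.

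Fkbp5, a gene induced by glucocorticoids, was chosen after its values were seen and stood at 47.1 TPM in replicate 1 against 10.6 TPM in replicate 2, the direction in which Klhl38 differed. Any link between the genes was not tested.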
